A study of Rattus norvegicus with 24 samples.

Results

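Heat shock chaperones of the cytosol and mitochondria, with a factor that induces such genes, were followed in rat lung across 4 exposures. The set held 10 genes of the 30043 in the count table, chosen by name with earlier results of these same comparisons in view: Hsp90aa1 and Hsp90ab1, the inducible and constitutive cytosolic HSP90; the HSP90 co-chaperones Fkbp4 and Ahsa2; Hsph1 and Hspa8 of the HSP110 and HSP70 families; the J-domain protein Dnajb1; the mitochondrial pair Hspd1 and Hspe1; and the transcription factor Hsf1. All 10 were among the 13322 genes that passed the low-count filter. Because the choice was made with results known, their fold changes and p-values describe these libraries and are not independent evidence.

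The animals were male Fischer rats (F344/DuCrl) bought at 3 months of age, 6 in each group, studied over 29 weeks in a whole-body inhalation chamber, and total RNA came from a piece of lung with ribosomal RNA removed. The air group breathed air alone throughout. The silica group breathed crystalline silica (Min-U-Sil5) at 15 mg/m3 for 6 hours a day on 5 days of week 3, and otherwise air. The smoke group breathed cigarette smoke for 3 hours on Tuesdays and Fridays, at 40 mg/m3 in the first week and 80 mg/m3 later, with a pause in week 3. The combined group had the same smoke schedule, starting at 45 mg/m3, with the silica exposure in week 3, so that its smoke dose in the first week differed slightly from that of the smoke group. The labels give no hour of tissue collection.

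Heat shock proteins fold new or damaged proteins. HSP70 binds exposed stretches of a client with the help of J-domain proteins, HSP110 acts as its nucleotide exchange factor, and HSP90 takes over clients such as steroid receptors and kinases with co-chaperones that set its ATP cycle. When misfolded protein accumulates or temperature rises, HSF1 forms trimers that bind heat shock elements, alternating repeats of the pentamer NGAAN, upstream of these genes. The cytosolic genes then rise together.

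RefSeq promoter windows of 300 bases around the gene start used in that table (build GRCr8), most of them before the start, existed for 8 members and not for Hsp90aa1 and Hsf1. The windows printed are those of the 3 members called lower with smoke and of 2 members with several heat shock element matches, each read 5′ to 3′ on the strand of its gene. They lie at chr12:10427118-10427417 on the plus strand (Hsph1), chr4:163397869-163398168 on the minus strand (Fkbp4), chr14:101686701-101687000 on the minus strand (Ahsa2), chr8:50080264-50080563 on the plus strand (Hspa8) and chr9:64084077-64084376 on the plus strand (Hspe1). Capitals mark the bases covered by matches to 3 adjacent pentamers (2 overlapping matches in Hspe1), or in Fkbp4 to 2 pentamers.
Hsph1: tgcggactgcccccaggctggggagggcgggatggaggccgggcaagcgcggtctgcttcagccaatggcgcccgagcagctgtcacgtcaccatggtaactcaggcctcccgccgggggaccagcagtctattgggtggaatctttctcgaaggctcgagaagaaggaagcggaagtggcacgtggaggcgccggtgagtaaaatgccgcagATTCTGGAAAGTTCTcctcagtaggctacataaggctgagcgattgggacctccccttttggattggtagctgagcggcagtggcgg
Fkbp4: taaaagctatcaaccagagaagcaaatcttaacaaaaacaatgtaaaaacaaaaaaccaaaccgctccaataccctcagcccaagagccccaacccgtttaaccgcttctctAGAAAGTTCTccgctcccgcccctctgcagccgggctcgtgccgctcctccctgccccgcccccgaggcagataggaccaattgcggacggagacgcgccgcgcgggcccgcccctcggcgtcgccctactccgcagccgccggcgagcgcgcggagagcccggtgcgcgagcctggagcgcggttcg
Ahsa2: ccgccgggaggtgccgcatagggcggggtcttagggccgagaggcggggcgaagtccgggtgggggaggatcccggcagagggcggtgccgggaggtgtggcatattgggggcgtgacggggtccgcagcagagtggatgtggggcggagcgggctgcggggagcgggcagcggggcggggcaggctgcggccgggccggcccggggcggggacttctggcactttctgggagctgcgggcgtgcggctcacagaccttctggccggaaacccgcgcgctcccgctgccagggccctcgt
Hspa8: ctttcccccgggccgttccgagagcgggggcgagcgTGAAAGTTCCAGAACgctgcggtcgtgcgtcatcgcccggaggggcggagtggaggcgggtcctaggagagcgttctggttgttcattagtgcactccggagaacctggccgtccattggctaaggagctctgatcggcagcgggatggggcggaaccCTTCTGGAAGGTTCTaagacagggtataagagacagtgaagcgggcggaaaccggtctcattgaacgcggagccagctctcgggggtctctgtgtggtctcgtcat
Hspe1: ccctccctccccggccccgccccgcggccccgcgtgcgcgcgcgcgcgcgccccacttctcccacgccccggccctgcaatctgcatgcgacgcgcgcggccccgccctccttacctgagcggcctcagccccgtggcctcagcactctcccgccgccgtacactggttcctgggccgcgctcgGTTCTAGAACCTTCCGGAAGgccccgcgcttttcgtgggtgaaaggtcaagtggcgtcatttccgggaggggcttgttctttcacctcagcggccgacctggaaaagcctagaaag

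The element of 3 pentamers, NGAANNTTCNNGAAN or NTTCNNGAANNTTCN, which are reverse complements of each other, was in 266 of 33469 promoters (0.795%) and in 4 of the 8 member windows. In Hsph1 it began 37 bases before the start. Hspa8 held 2, beginning 214 and 56 bases before the start. Hspe1 and Hspd1, which are transcribed away from each other, shared the stretch in capitals: their windows overlap by 211 bases, and the Hspd1 window reads the same element on the other strand. The match lies inside the span of Hspd1 in the RefSeq gene table, so for that gene it may not be upstream of the start. Fkbp4 held only the shorter element of 2 pentamers (NGAANNTTCN or NTTCNNGAAN), as did Dnajb1, and that letter pattern was in 15.8% of all promoters and in 6 of 8 member windows. Ahsa2 and Hsp90ab1 held neither within these 300 bases. The E-box CACGTG, the same on both strands and overlapping none of the capitals, was in 6.42% of promoters and in 1 member window, that of Hsph1, beginning 70 bases before the start. A match is a run of letters and not a measured binding site. Of the members with the longer element, Hsph1 was called lower with smoke averaged over silica and Hspa8, Hspd1 and Hspe1 were not, as described below. With only the shorter element, Fkbp4 was called lower and Dnajb1 was not. With neither, Ahsa2 was called lower and Hsp90ab1 was not. Whether the elements bear on these differences was not tested.

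Depth and a few libraries bear on every value. Total counts ran from 1084815 to 4687805 in 22 libraries, with 280484 in silica 4 and 21629 in smoke 2. In smoke 2, 1 count is 46.2 CPM (counts scaled to a common library total), 7 members had 0 counts and 3 counts would be 139 CPM, so levels of the smoke group are given for the other 5 libraries. The fit kept smoke 2. Silica 1 had the lowest summed neutrophil marker level of the silica group (93.2 CPM, against a median of 497 CPM there and 58.3 to 114 CPM in air), and smoke 1 had the highest of the smoke group (462 CPM against a median of 143 CPM), so these are called the libraries labelled silica 1 and smoke 1. These marker levels go against the labels; whether the labels were exchanged was not tested, and results that rest on them are given with and without them. Air 6 had a summed fibroblast marker level of 5984 CPM against at most 1373 CPM in any library of the silica, smoke and combined groups. Levels are of bulk tissue, where fewer cells of a type and less RNA per cell cannot be told apart.

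**Figure D1:**
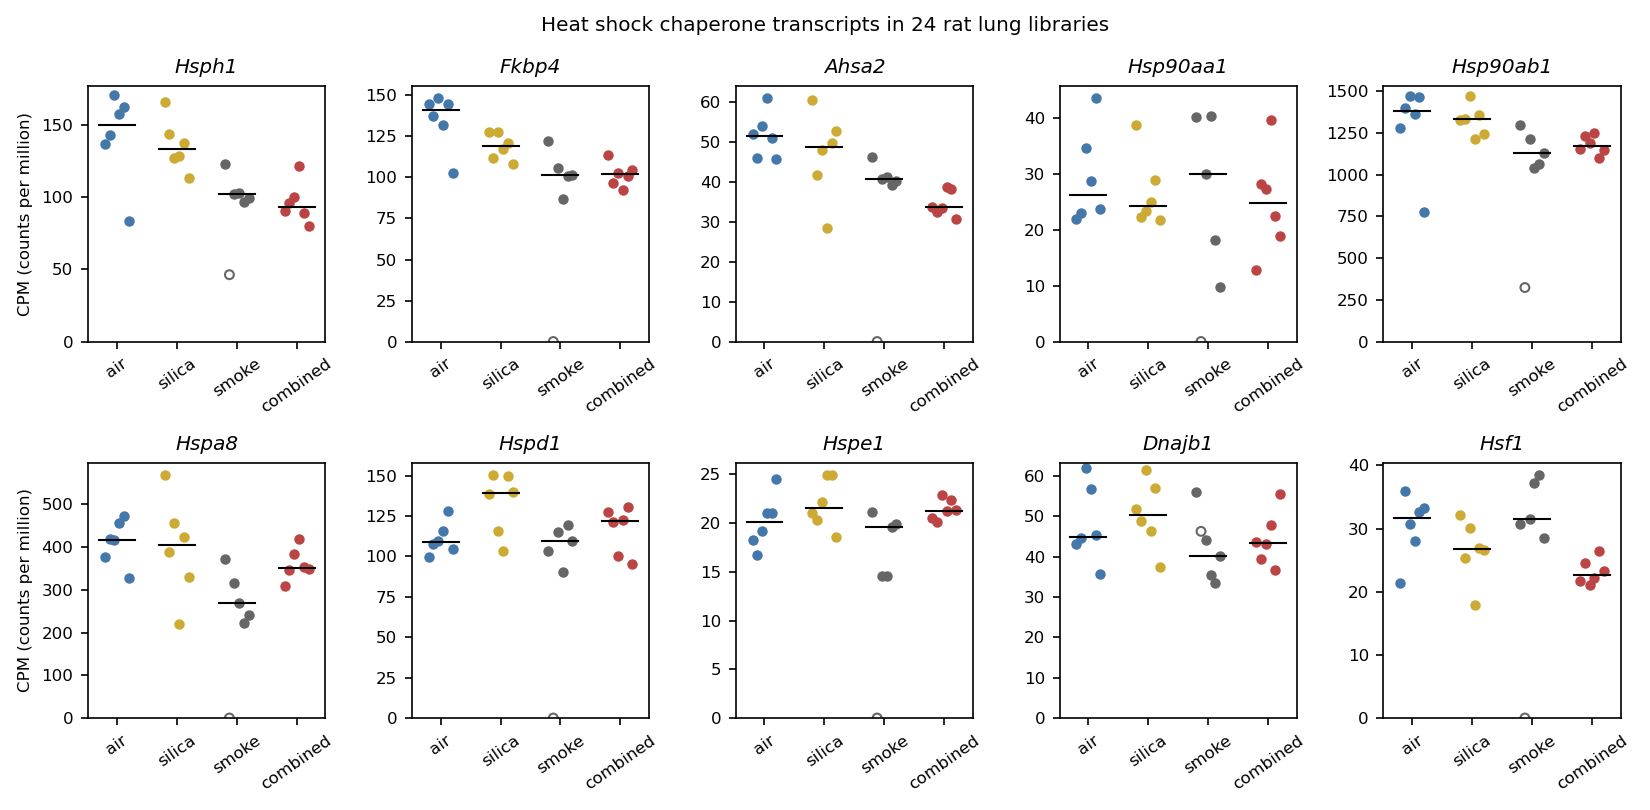
Level of each of the 10 genes in CPM (vertical axes, each from 0) in the 24 libraries, by exposure group on the horizontal axis; points are libraries, the open point is smoke 2 with 21629 total counts, and the black line is the median of the filled points. Hsph1, Fkbp4 and Ahsa2 are lower in the smoke and combined groups than in most air and silica libraries. Air 6 is the lowest air point of Hsph1, Fkbp4, Ahsa2, Hsp90ab1, Hspa8 and Dnajb1.

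With smoke averaged over lungs with and without silica all 10 members lay below 0. Combined exposure against silica is 1 of the 2 differences in that average, and there too all 10 lay below 0, from -0.51 (Ahsa2) to -0.0054 (Hspe1). In the other, smoke against air, 9 did. In the smoke average their median log2 fold change was -0.19, where the median of all genes was -0.00. Hsph1, Ahsa2 and Fkbp4 passed the threshold (edgeR quasi-likelihood test, Benjamini-Hochberg adjusted p under 0.05) and were lower; the other 7 did not pass. Over all genes 0.51% were called lower and 0.338% higher, so that the 3 of 10 lower members stand beside a small background, a share from which nothing is read because the members were chosen with this comparison in view.

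Hsph1 encodes the HSP110 protein that exchanges nucleotide on HSP70 and prevents aggregation. It was at 83.6, 150 and 171 CPM (lowest, median, highest) in air, 113, 133 and 166 in silica, 96.7, 102 and 123 in the 5 smoke libraries and 80.2, 93.2 and 122 in the combined group. Every smoke and combined library was below every air library except air 6, which at 83.6 CPM lay among the exposed lungs, and the next air library was at 137 CPM. Averaged over silica, Hsph1 fell by 27.8% with smoke (log2 fold change -0.47 ± 0.09 SE, adjusted p = 0.0119). Combined exposure against air gave -0.53 ± 0.13 (adjusted p = 0.00288). Without air 6, silica 1, smoke 1 and smoke 2 these values were -0.54 and -0.66. Both calls were kept when any single library was left out.

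Ahsa2 encodes a relative of AHA1, the co-chaperone that stimulates the HSP90 ATPase. Its levels were 45.7, 51.5 and 61.0 CPM in air, 28.5, 48.9 and 60.6 in silica, 39.3, 40.8 and 46.2 in smoke and 30.7, 33.6 and 38.7 in the combined group. The combined group lay wholly below air, and below silica apart from silica 4, whose 28.5 CPM rested on 8 counts. With smoke averaged over silica Ahsa2 fell by 24.6% (-0.41 ± 0.08, adjusted p = 0.00860), and combined exposure against air gave -0.54 ± 0.11 (adjusted p = 4.97e-04). Both calls were kept without any single library. Its better-studied paralog Ahsa1 stood at -0.20 ± 0.07 with smoke averaged over silica and did not pass (adjusted p = 0.203).

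Fkbp4 encodes FKBP52, the immunophilin that works with HSP90 on steroid receptors. Air libraries held 103, 141 and 148 CPM, silica 108, 119 and 128, smoke 86.8, 101 and 122, and combined 92.2, 102 and 114. Air 6 was again the lowest of its group, at 103 CPM with the next air library at 132, and without it no smoke or combined library reached the air range. Smoke against air stood at -0.38 ± 0.10 (adjusted p = 0.214) and combined against silica at -0.21 ± 0.10 (adjusted p = 0.398). Silica against air stood at -0.15 ± 0.10 (adjusted p = 0.461) and the interaction at 0.18 ± 0.15 (adjusted p = 0.836), and none of these passed. The smoke-averaged difference was -0.29 ± 0.07 (adjusted p = 0.0466), and combined against air gave -0.35 ± 0.10 (adjusted p = 0.00993). The first of these calls was at the edge of the threshold: it was lost when any of 21 single libraries was left out, with an adjusted p of at most 0.0859, and under DESeq2 (0.0999). The second was kept in all of them.

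The HSP90 genes did not pass in any of the 7 comparisons. Hsp90ab1, the constitutive form, was at 774, 1380 and 1475 CPM in air, 1216, 1332 and 1473 in silica, 1041, 1127 and 1297 in smoke and 1100, 1173 and 1251 in the combined group. Air 6 at 774 CPM was the lowest library apart from smoke 2, and the other 5 air libraries, from 1280 CPM upward, lay above all combined libraries and all smoke libraries but smoke 1. Smoke averaged over silica stood at -0.19 ± 0.10 (adjusted p = 0.413). Without air 6, silica 1, smoke 1 and smoke 2 it was -0.25 and passed (adjusted p = 0.00307). Hsp90aa1, the stress-inducible form, varied more within groups, from 21.9 to 43.5 CPM in air and 9.67 to 40.2 CPM in smoke. Its smoke-averaged difference was -0.09 ± 0.18, with a 95% interval of -0.46 to 0.28 (adjusted p = 0.885).

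Hspa8 encodes HSC70, the constitutive cytosolic HSP70. It was at 327, 417 and 473 CPM in air, 221, 406 and 569 in silica, 222, 268 and 372 in smoke and 309, 351 and 418 in the combined group. Among the 5 smoke libraries, smoke 1 was the only one above the lowest air library, air 6. The silica and combined groups overlapped air. Smoke against air stood at -0.55 ± 0.16 but did not pass (adjusted p = 0.251), and combined against air stood at -0.15 ± 0.15. Combined against smoke stood on the higher side, at 0.40 ± 0.16, and did not pass (adjusted p = 0.102). The interaction of silica and smoke was 0.38 ± 0.22 (adjusted p = 0.736), so a difference between the 2 smoke effects, with and without silica, was not detected. With air 6, silica 1, smoke 1 and smoke 2 left out, Hspa8 was lower in smoke against air (-0.70, adjusted p = 9.03e-04).

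Dnajb1, the J-domain partner of HSP70 that heat strongly induces, did not pass in any comparison and ranged from 35.6 to 61.9 CPM in air and 36.6 to 55.4 CPM in the combined group. Hspd1 and Hspe1 encode HSP60 and HSP10, which together form the folding chamber of the mitochondrial matrix. Hspd1 was at 99.5, 109 and 128 CPM in air and at 103, 139 and 151 CPM in silica, and 4 of the 6 silica libraries were above the highest air library. Its silica difference of 0.33 ± 0.10 narrowly missed the threshold (adjusted p = 0.0668) and passed without air 5, without silica 1 or without smoke 2 (down to adjusted p = 0.0327). Hspe1 stood at 0.12 ± 0.12 in the same comparison and rested on 7 to 115 counts a library outside smoke 2. These 4 genes, Hsp90aa1, Hspa8, Hspd1 and Hspe1, have near-identical copies in mammalian genomes, and no label says whether the counting could split their reads between copies, so their levels are uncertain.

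Hsf1, the regulator, followed another order. Air libraries held 21.3, 31.7 and 35.9 CPM, silica 17.8, 26.8 and 32.2, smoke 28.5, 31.4 and 38.5, and combined 21.0, 22.7 and 26.5. The combined group lay wholly below the 5 smoke libraries, and 1 air library, air 1, lay within the combined range. Hsf1 was lower in the combined group than in smoke (-0.47 ± 0.13, adjusted p = 0.0140) and than in air (-0.35 ± 0.12, adjusted p = 0.0346), and stood at -0.06 ± 0.09 with smoke averaged over silica. The comparison with air was lost under DESeq2 (adjusted p = 0.165) and without any of 8 single libraries, namely air 2, 5 or 6 or combined 1, 2, 3, 4 or 6. The comparison with smoke was lost under DESeq2 (0.0643) and without smoke 4.

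**Figure D2:**
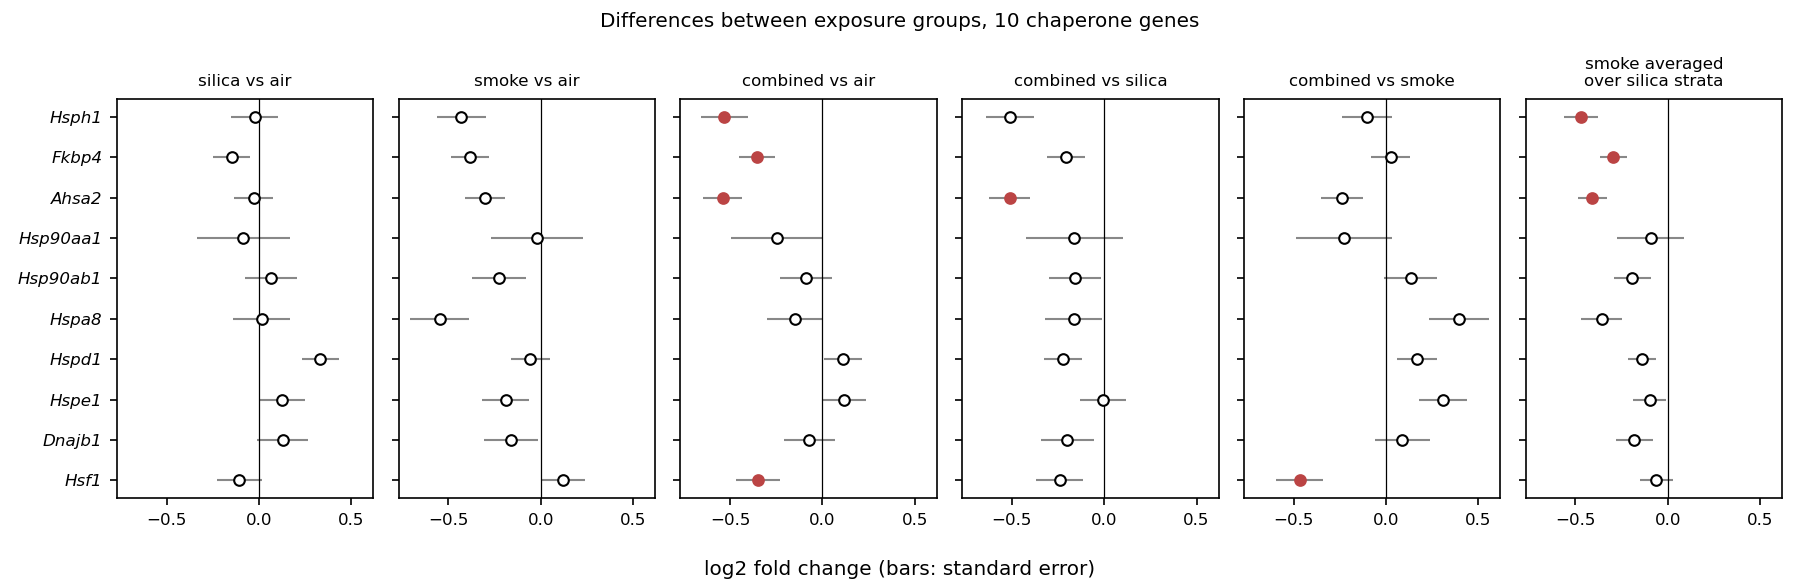
Log2 fold change (horizontal axis) with its standard error for the 10 genes (rows) in 6 comparisons (panels); filled red points passed an adjusted p of 0.05 in the edgeR fit. With smoke averaged over silica all 10 points lie below 0 and 3 are filled, from -0.47 (Hsph1) to -0.06 (Hsf1).

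Across the remaining comparisons the members were mostly not called. Combined exposure against air called 4 of 10 lower and none higher, where 10.8% of all genes were lower and 11.6% higher. Silica against air called no member, where 2.15% of genes were higher and 1.01% lower, and 1 member, Hspd1, had an unadjusted p under 0.05, as did 2427 of the 13322 genes. Smoke against air called none, where 0.0976% were higher and 0.0525% lower, with 4 members at an unadjusted p under 0.05 (Hsph1, Fkbp4, Ahsa2 and Hspa8) beside 1105 of the 13322 genes. Without air 6 alone, 2 members were lower there, Hsph1 (-0.56, adjusted p = 0.00264) and Fkbp4 (-0.46, adjusted p = 0.0131). In that fit 42 of 13275 genes were called, 28 of them lower. Adding smoke to silica called 1, Ahsa2 (-0.51 ± 0.11, adjusted p = 0.0329), where 0.128% were lower and 0.12% higher. That call was lost under DESeq2 (0.146) and without silica 1, 5 or 6, smoke 3 or combined 1, 2, 3 or 6 (up to 0.170). Hsph1 had almost the same value there (-0.51 ± 0.13), missed the threshold (adjusted p = 0.0915) and passed without air 6 (0.00326) or combined 4 (0.0494). Adding silica to smoke called 1, Hsf1, where 5.57% were lower and 7.34% higher. The interaction called 0% of genes by edgeR, with 977 at an unadjusted p under 0.05 and 1 called by DESeq2. These comparisons share their control libraries and are not independent of each other.

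Leaving out the libraries that stand apart changed some counts. Without air 6, silica 1, smoke 1 and smoke 2, a choice made after the data were seen, smoke averaged over silica called 5 members (Hsph1, Fkbp4, Ahsa2, Hsp90ab1 and Hspa8), where 139 of 13518 genes were called. Smoke against air then called 4 (Hsph1 at -0.62, Fkbp4 at -0.52, Hsp90ab1, and Hspa8 at -0.70), where 98 of 13518 genes were called. Combined against air called 4, with Hsp90ab1 (-0.21) in place of Hsf1, where 3383 of 13518 genes were called, 1606 of them lower. With silica 1, smoke 1 and smoke 2 left out and air 6 kept, 13666 genes were tested. The smoke-averaged calls were the same 3 genes as in the reported fit, where 47 genes were called. Smoke against air called 1, Hspa8, where 23 genes were called. Combined against silica went from 1 call to 0, where 40 genes were called.

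Other members of the chaperone network were read from lists of known genes. Of 22 HSP90 co-chaperones, 21 were tested, and smoke averaged over silica lowered 3 of them, raised 0 and left 18 uncalled, with a list median of -0.12. Over all genes 0.51% were lower and 0.338% higher there, and 2 of the 3, Ahsa2 and Fkbp4, are members chosen with results known. The third, beside Ahsa2 and Fkbp4, was Fkbp5 (FKBP51), an inhibitory HSP90 partner of steroid receptors that glucocorticoids induce, at -0.48 ± 0.12 (adjusted p = 0.0456), a call lost without any of 16 single libraries. Combined exposure against air called 2 of the 21 higher, the folliculin partners Fnip1 and Fnip2 (Fnip2 at 0.77 ± 0.11, adjusted p = 1.76e-05). It called 2 lower, Ahsa2 and Fkbp4, where 11.6% of all genes were higher and 10.8% lower. Stip1, the adaptor that links HSP70 to HSP90, stood at -0.14 ± 0.08 with smoke averaged over silica. Cdc37, which brings kinases to HSP90, stood at 0.14 ± 0.07, and neither passed.

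Of 20 genes known as inducible HSF1 targets, a list that contains most members, 19 were tested. With smoke averaged over silica 3 were lower and 0 higher (Hsph1, Hspb1 and Fkbp4), where 0.51% of all genes were lower and 0.338% higher. With combined exposure 4 were lower and 0 higher (Hsph1, Hspb1, Fkbp4 and Cryab), where 10.8% of all genes were lower and 11.6% higher. Hsph1 and Fkbp4 are members chosen with these results known. Hspb1 encodes the small heat shock protein HSP27. It was at 94.3, 130 and 152 CPM in air, 53.5, 79.8 and 108 in silica, 63.9, 99.8 and 119 in smoke and 57.0, 61.9 and 65.5 in the combined group, and the combined group lay wholly below air. Combined exposure lowered it by -1.01 ± 0.13 on the log2 scale (adjusted p = 5.00e-06), silica alone by -0.60 ± 0.13 (adjusted p = 0.0116) and smoke averaged over silica by -0.42 ± 0.10 (adjusted p = 0.0298), the last lost without silica 1 or 5, smoke 1 or combined 3, 5 or 6 (up to 0.0646). The smoke-averaged call was also lost with limma voom (0.103), without silica 1, smoke 1 and smoke 2 (-0.32) and without air 6 as well (-0.30, adjusted p = 0.0697). Cryab, a second small heat shock protein abundant in muscle and lens, was lower in silica (-0.46 ± 0.11, adjusted p = 0.0225, lost without air 6 or silica 2, 5 or 6, up to 0.0893) and in combined exposure (-0.66 ± 0.11, adjusted p = 9.97e-05), and stood at -0.14 ± 0.08 with smoke averaged over silica. Hspa1b, the classical heat-inducible HSP70, had a median of 5.51 CPM in air and 3.63 CPM in the combined group. It stood at -0.58 ± 0.30 in combined exposure and -0.64 ± 0.22 with smoke averaged over silica, and did not pass in either (adjusted p = 0.173 and 0.182).

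The other chaperone lists, of several compartments, are set against the same background, 11.6% of genes higher and 10.8% lower in combined exposure. Of 14 endoplasmic reticulum chaperones, 7 were higher and 0 lower in combined exposure against air (median 0.26), and 0 were called with smoke averaged over silica (median -0.01). Silica against air had nearly the same median, 0.25, with 0 called. Combined against smoke called 7 higher and 0 lower (median 0.32), where 7.34% of all genes were higher. Combined against silica called 0 (median 0.01). Hsp90b1, the HSP90 of the endoplasmic reticulum, stood at 0.05 ± 0.12 in combined exposure against air. Of 10 mitochondrial chaperones and proteases 1 was called higher in combined exposure, Hspa9 (0.28 ± 0.10, adjusted p = 0.0490), and none lower. The 14 TRiC and prefoldin subunits, which fold actin and tubulin, had 1 higher (Pfdn1) and none lower. Of 13 HSP70 and HSP110 genes tested, combined exposure raised 3 (Hspa4, Hspa9 and Hyou1) and lowered 3 (Hsph1, and Hspa12a and Hspa12b at -0.47 ± 0.13 and -0.34 ± 0.09). Of 24 J-domain genes, 2 were higher (Dnajb11 and Dnajc3, both of the endoplasmic reticulum) and 1 lower (Dnajb5). Several of these calls were near the threshold: that of Hspa4 was lost without any of 7 single libraries, Dnajb11 and Pfdn1 without any of 9, Hspa9 and Dnajc3 without any of 12, Hyou1 without any of 14 and Dnajb5 without any of 18.

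**Figure D3:**
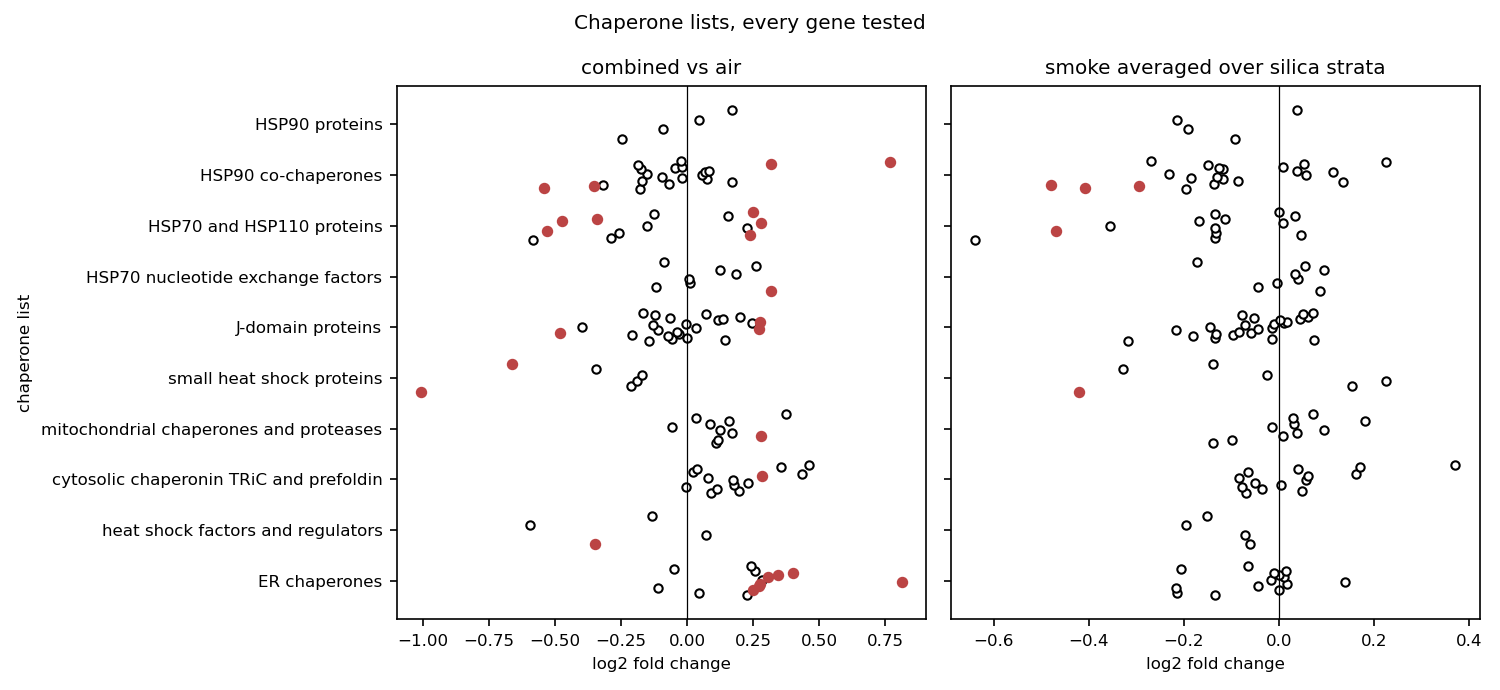
Log2 fold change (horizontal axes, with different ranges) of every tested gene in 10 chaperone lists (rows) for combined exposure against air and for smoke averaged over silica; each point is a gene and filled red points passed an adjusted p of 0.05. In combined exposure 7 of 14 endoplasmic reticulum chaperones are filled on the higher side, and with smoke averaged over silica the 5 filled points are all on the lower side.

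Several measures moved with these differences, and their part in them was not tested. In combined exposure against air all 4 neutrophil markers were higher, 3 of 6 alveolar type 2 markers, 2 of 4 macrophage markers (Cd68 and Siglec1) and 1 of 4 proliferation markers (Mki67) were higher, and 4 of 5 endothelial, 3 of 5 alveolar type 1, 3 of 6 ciliated cell and 3 of 4 fibroblast markers were lower. The summed endothelial level was 3204 to 4036 CPM in air and 2156 to 2619 CPM in the combined group, and the summed neutrophil level was 58.3 to 114 CPM and 335 to 771 CPM. With smoke averaged over silica, where Hsph1, Ahsa2 and Fkbp4 were lower, the 13 marker lists held 2 called genes, Hbb and Siglec1, both higher. The summed erythroid level, which includes Hbb, was 453327 CPM in smoke 2 and at most 12914 CPM in any other smoke library. The fit kept smoke 2, and whether the Hbb call rests on it was not tested. With smoke averaged over silica 6 of 14 core clock genes were higher, among them Nr1d1 (2.02 ± 0.18) and Dbp (1.76 ± 0.17), and 3 were lower (Arntl, Npas2 and Cry1). Of 8 genes that glucocorticoids induce, 3 were lower in that comparison (Fkbp5, Tsc22d3 and Zbtb16) and 0 higher. Over all genes 0.51% were lower and 0.338% higher there. Combined exposure against air called 3 of the 8 lower (Tsc22d3, Zbtb16 and Klf9) and 1 higher (Sgk1), where 10.8% were lower and 11.6% higher. With smoke averaged over silica Tsc22d3 stood at -0.64 ± 0.10 (adjusted p = 3.78e-04). Per1, which glucocorticoids also induce, stood at -0.20 ± 0.16 (adjusted p = 0.616). Rbm3, which cooling raises, was higher in combined exposure (0.47 ± 0.08, adjusted p = 1.56e-04) and stood at 0.23 ± 0.06 with smoke averaged over silica (adjusted p = 0.0645). Cirbp, also cold-induced, stood at -0.08 ± 0.10 and 0.10 ± 0.07. Among HSP90 clients the receptors Nr3c2, Ahr and Nr3c1 were lower in combined exposure (-0.54 ± 0.12, -0.39 ± 0.10 and -0.21 ± 0.07), Esr1 was higher (2.30 ± 0.27), and none was called with smoke averaged over silica. The Nr3c1 call was lost without any of 16 single libraries.

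Inside the exposure groups some pairs of members varied together. The deviation of each library from its group mean of log2 CPM was compared for 45 pairs of members over 23 libraries, leaving out smoke 2, with deviations permuted within groups 100000 times and p-values adjusted over the 45 pairs. The correlation was above 0 in 32 pairs (median r 0.25), and 7 pairs passed by both Pearson r and Spearman rho; pairs of other genes were not compared in this way. Hsph1 and Hsp90ab1 gave the highest value (r = 0.832, permutation p = 0.00277, adjusted 0.0249; rho = 0.663, permutation p = 0.00351, adjusted 0.0226). Without the 2 libraries farthest from the median of Hsph1, air 6 and combined 4, r was 0.610, and without air 6 alone 0.593. Both values kept deviations from group means that included the left-out libraries, as do the values below without the farthest 2. With group means taken again without air 6, over 22 libraries, r was 0.477. Hsp90ab1 and Dnajb1 gave r = 0.649 and rho = 0.669 (permutation p = 3.20e-04 and 6.30e-04, adjusted 0.00480 and 0.00709), with r = 0.718 without the farthest 2. Hsph1 and Hspa8 gave r = 0.592 and rho = 0.653 (permutation p = 3.20e-04 and 5.40e-04, adjusted 0.00480 and 0.00709), with 0.587 without the farthest 2. Hspd1 and Hspe1, whose windows share the element and whose proteins form 1 complex, gave r = -0.061 and rho = -0.023 (permutation p = 0.793 and 0.926, adjusted 0.880 and 0.947), with -0.095 without the farthest 2.

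**Figure D4:**
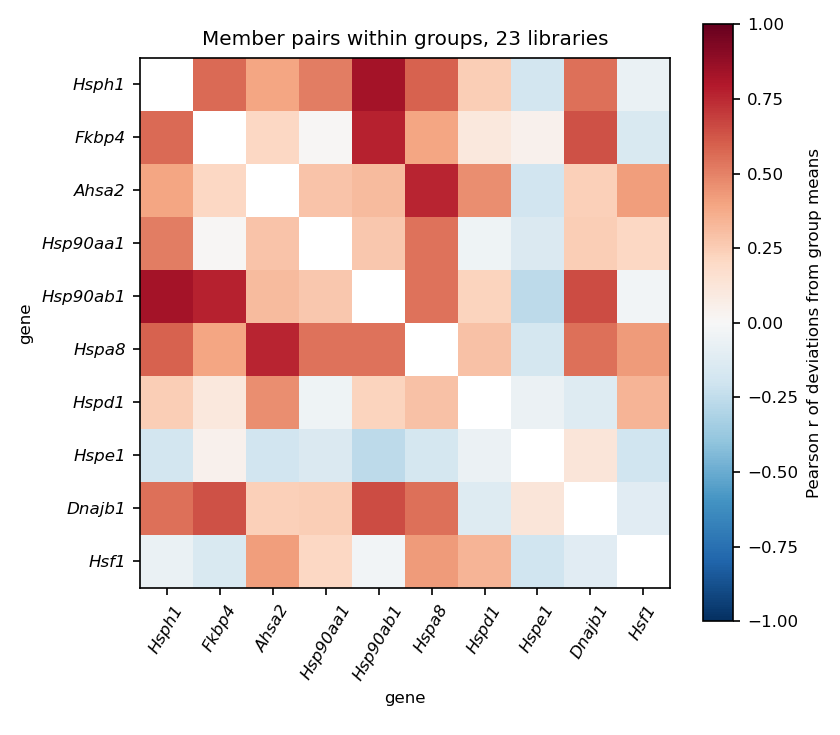
Pearson r for each pair of the 10 genes (rows and columns), from deviations of log2 CPM from group means in 23 libraries; red is above 0, blue below, and the diagonal is left blank. The block of Hsph1, Hsp90ab1, Hspa8 and Dnajb1 is red (Hsph1 with Hsp90ab1 at 0.832), and Hspd1 with Hspe1 is close to white at -0.061.

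The genes outside the set most like Hsph1 inside groups, by the same r over 23 libraries among 13321 genes, included Cd163l1 (0.853), Nfkbia (0.837), Fmo2 (0.831), LOC102546303 (0.827), Cntn1 (0.818), Mcl1 (0.811), Exoc6b (0.806), Zc3h11a (0.804) and Ddit4 (0.800). The least alike were Nell1 (-0.826), Adamts12 (-0.814), Hmgcs1 (-0.810), Col3a1 (-0.800) and Nnat (-0.796). Hsp90ab1 ranked 3 in that order, Hspa8 264 and Fkbp4 335. The ranking was largely set by air 6: without it, over 22 libraries, Cd163l1 ranked 108 with r = 0.557. Hsp90ab1 then fell to rank 302 with r = 0.477 and Fkbp4 to rank 5417 with r = 0.070. Exoc6b ranked 2 with r = 0.737, Hspa8 rose to rank 43 with r = 0.603, and Hsp90aa1 rose from rank 526 to rank 13 with r = 0.656. These correlations share the libraries and their depth and are given as a description.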

How the data were processed

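Lung RNA of 24 rats was sequenced. The submitters' processing notes name HTSeq 0.11.2, SAMtools 1.8, HISAT2 2.1.0, Trimmomatic 0.35, Cufflinks and bcl2fastq 2.19. The sources used here give neither genome build nor strand setting. The authors deposited 1 table of raw read counts per gene (30069 lines, of which 26 repeats were removed). The 10 members and all gene lists were chosen with earlier results of these data known. In R 4.3.3, edgeR 4.0.16 filtered genes (filterByExpr, minimum count 10), scaled by TMM and fitted group means to 24 libraries in 1 quasi-likelihood model. The 7 comparisons were called at a Benjamini-Hochberg adjusted p under 0.05, two-sided. CPM divides a count by all counts of the library. Correlations used log2 CPM with prior count 2. Alternatives were other size factors, no filter, DESeq2 1.42.0, limma 3.58.1 voom with and without quality weights, fits of the compared groups alone and left-out libraries. Named from the lists were up to 4 called genes per list and comparison, the most abundant uncalled ones, and Cirbp, Rbm3, Nr1d1, Dbp, Per1, Fkbp5 and Tsc22d3; Stip1, Cdc37, Ahsa1, Hspa1b and Hsp90b1 were added after their values were seen. Replicate numbers only name libraries. 1 gene of the likeness order is not reported here.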

Additional observations from a re-analysis of the deposited data

Results flagged for a closer look

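Of 40 gene and group combinations, 9 held a library far from the rest of its group; chance alone gives about 1 in 20. Of these, 7 were smoke 2, which holds 21629 counts. Hsph1 was at 46.2 CPM there, which is 1 count, and Hsp90ab1 was at 324 CPM, where the next smoke library was at 1041 CPM. Fkbp4, Ahsa2, Hspd1, Hspe1 and Hsf1 were at 0 CPM there, at a depth where 3 counts are 139 CPM. The other 2 were air 6, with Fkbp4 at 103 CPM (next air library 132 CPM) and Hsp90ab1 at 774 CPM (next 1280 CPM). Air 6 is the deepest library, with 4687805 counts.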

How the results depend on the processing

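The calls of Hsph1 and Ahsa2 with smoke averaged over silica and with combined exposure against air, and of Fkbp4 in the latter, held in every alternative run. Over the gene values tested, 1803 kept direction and side of the threshold, 254 lost a call, 32 gained one and 2 changed sign: Hsp90aa1 with smoke averaged over silica (-0.09 as reported, from -0.17 without smoke 1 to 0.0094 without smoke 6) and Dnajb1 in combined against air (-0.07 as reported, from -0.17 without air 6 to 0.011 without air 3), neither called. The Fkbp4 smoke-averaged call was also lost with no filter (0.0505) and with limma voom (0.0569), and the Hsf1 call against air with no filter (0.0577). The cause was not tested in any of these.

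Counts of members called moved as follows. Silica against air, 0 in the reported fit, gave 1 with quality weights, 1 without silica 1, smoke 1 and smoke 2, and 2 without air 6 as well, and 0 to 1 without single libraries. Smoke against air, 0 as reported, gave 3, 1 and 4 under the same settings and 0 to 2 without single libraries. Combined against silica, 1 as reported, gave 0 with DESeq2, 2 with quality weights, 0 and 2 without those libraries, 2 in the 12 libraries compared and 0 to 2 without single libraries. Combined against smoke, 1 as reported, gave 0, 3, 2, 3 and 2 under these settings and 0 to 2 without single libraries. The reported call there was Hsf1, lower, whereas Hspa8, the call gained, was higher (0.39 to 0.52). Hspe1 was also gained with quality weights and without air 6, silica 1, smoke 1 and smoke 2. In the reported fit Hspe1 stood at 0.31 ± 0.13 (adjusted p = 0.117). Combined against air gave 3 to 4, and smoke averaged over silica 2 to 3, without single libraries, with 5 without air 6, silica 1, smoke 1 and smoke 2.

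Counts over all genes moved too. Silica against air gave 276 with DESeq2, 104 with voom, 909 with quality weights, 1614 without silica 1, smoke 1 and smoke 2, 1541 without air 6 as well, 91 in the 12 libraries compared, and 124 (without silica 5) to 1183 (without silica 1), against 422. Smoke against air gave 7 with voom, 72 with quality weights, 98 without the 4 libraries, 5 in the 12 compared, and 6 (without air 3) to 42 (without air 6), against 20. Combined against air gave 1801 with DESeq2, against 2987. Combined against silica gave 116 with quality weights, 111 without the 4 libraries, 100 in the 12 compared, and 16 (without silica 1) to 113 (without air 6), against 33. Combined against smoke gave 1009 with DESeq2, 3368 with quality weights, 2751 without the 3 libraries, 3402 without the 4, and 905 (without smoke 3) to 2271 (without air 6), against 1720. The interaction gave 1 with DESeq2, 9 with quality weights and 19 without the 4 libraries, against 0. Smoke averaged over silica gave 63 with voom, 190 with quality weights, 47 without the 3 libraries, and 47 (without silica 1) to 203 (without air 6), against 113. The likeness order without silica 1 and smoke 1, with air 6 kept, had Hsp90ab1 at rank 7. Without air 6, Hsp90ab1 was at rank 302. No paired analysis was possible because the labels give no shared replicate numbers.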
